A study of Homo sapiens with 5 samples.

Results

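Cancer-testis antigen genes were taken from a table of gene expression in 5 cell lines by their symbols: the MAGEA, MAGEB and MAGEC genes, the GAGE, XAGE, PAGE and SSX genes, the CTAG genes and PRAME. The rule took 93 of the 57905 genes in the table. Each identifier is counted as 1 gene, though a few share a symbol, as with CTAGE15, or carry an older symbol of another, as with XAGE1C. Of the 93, 76 were counted as the cancer-testis families, and the other 17, taken in by their names, were counted apart. Of the 17, 16 are CTAGE genes, a separate family named for an antigen of cutaneous T-cell lymphoma. The other is SSX2IP, whose product interacts with SSX2. MKL-1, MKL-2, WaGa and MCC13 are cell lines from Merkel cell carcinoma, a neuroendocrine skin cancer, and REH is a line from pre-B-cell acute lymphoblastic leukemia. The labels give every line the genotype WT and name no treatment. RNA was sequenced from 1 library of each line, so the lines were the replicates of Merkel cell carcinoma (n = 4) and the leukemia had n = 1. Each line stands for 1 tumour, and the labels do not say whether any line was grown or sequenced more than once.

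Cancer-testis antigens are proteins made in male germ cells and in various tumours but in few other adult tissues. Most of their genes lie on the X chromosome, in clusters of recent copies, and in somatic cells their promoters are usually silenced by DNA methylation. Since the testis presents few peptides to T cells, peptides from these proteins can be seen as foreign when a tumour makes them, and several have been used as targets of vaccines and engineered T cells.

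Before the levels are described, the lines were set against markers of their labelled cell types. Of 10 Merkel and neuroendocrine markers, 9 or 10 reached 1 TPM in each of MKL-1, MKL-2 and WaGa, against 2 in MCC13, where ATOH1, INSM1, ISL1, KRT20 and NEUROD1 were listed at 0. The summed level of these markers was 317 TPM in MCC13, nearly all of it KRT8, and 4156 to 8326 TPM in the other Merkel cell carcinoma lines. The summed level of 7 mesenchymal markers was 10050 TPM in MCC13, 967 in REH and 8.29 to 17.4 TPM in the other 3. REH had 8 of 9 pre-B markers at 1 TPM or more, with VPREB1 listed at 0. The library labelled MCC13 therefore stood apart from the other Merkel cell carcinoma lines, and members that stood apart in it are given with that line named. Markers of germ cells, in which cancer-testis genes are normally active, summed to 1.33 to 3.96 TPM over 9 genes in all 5 lines. POU5F1, which is also active in pluripotent cells, made up most of this sum, at 0.938 to 3.89 TPM. DAZL and DDX4 were listed at 0 or below 0.02 TPM in each line.

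Most cancer-testis genes were at or near 0 in every line. TPM, a share of all transcripts, is corrected for gene length, so levels can be compared between genes. Of the 76 genes of the cancer-testis families, 43 were listed at 0 in all 5 lines, 26 were above 0 without reaching 1 TPM, and 7 reached 1 TPM in at least 1 line. The 7 were PRAME, CTAG1A, CTAG1B, MAGEA9, MAGEA9B, MAGEB17 and SSX6. The highest of the genes that did not reach 1 TPM was SSX4, at 0.538 TPM in REH. With all 93 genes of the rule counted, 8 reached 1 TPM in WaGa, 4 in MCC13, 4 in REH, 3 in MKL-1 and 3 in MKL-2. The same level was reached by 28.9%, 27.5%, 27.8%, 28.9% and 29.2% of all genes in the table, in the same order of lines. In the families proper the counts were 5, 2, 2, 1 and 1 of 76. Read depth is unknown and a value of 0 may be an estimate that failed, so these genes are only said to be listed at 0. In a bulk sample, a few cells with much RNA and many cells with little cannot be told apart, and this holds for every level given here.

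**Figure D1:**
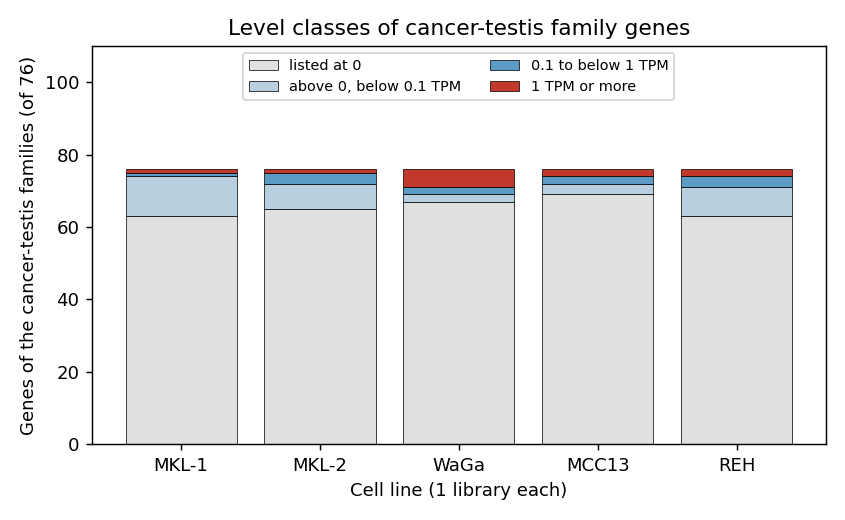
Number of genes (vertical axis) of the 76 in the cancer-testis families that fell into each of 4 classes of TPM in each cell line (horizontal axis), 1 library per line. Between 63 and 69 genes were listed at 0 in each line, and 1 to 5 reached 1 TPM.

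The low levels were also seen against other genes of the same chromosome. In the reference annotations 70 of the 76 genes were placed on the X chromosome and PRAME on chromosome 22, and 5 GAGE genes were not matched. Of the 70 on X, 6 reached 1 TPM in at least 1 of the 5 lines, which is 8.57%. The same level was reached by 500 of 765 X-linked protein-coding genes (65.4%) and by 14925 of 19263 protein-coding genes in all (77.5%). These sets are not alike. The 70 include pseudogenes, SSX6 among the 6, while the 765 are protein-coding only and include the protein-coding members that GENCODE matched by identifier. Near-identical copies are counted apart in the 70, with CTAG1A, CTAG1B, MAGEA9 and MAGEA9B among the 6.

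The summed level of the 76 genes was 383 TPM in WaGa, 323 in MCC13, 240 in REH, 7.58 in MKL-1 and 7.06 in MKL-2. MKL-1 and MKL-2 were low and the other 3 lines high. PRAME alone made up 63.1% of the sum in WaGa, 98.1% in MCC13, 89.9% in REH, 93.3% in MKL-1 and 91.1% in MKL-2. Without PRAME the other 75 genes summed to 141 TPM in WaGa, 24.4 in REH, 6.16 in MCC13, 0.625 in MKL-2 and 0.509 in MKL-1. Each of the 3 lines with a sum above 1 TPM owed it to a different family: CTAG and MAGEA in WaGa, MAGEB in MCC13 and SSX in REH. The MAGEB sum in MCC13 was nearly all MAGEB17, whose reads cannot be told with certainty from those of an antisense gene, as given below.

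**Figure D2:**
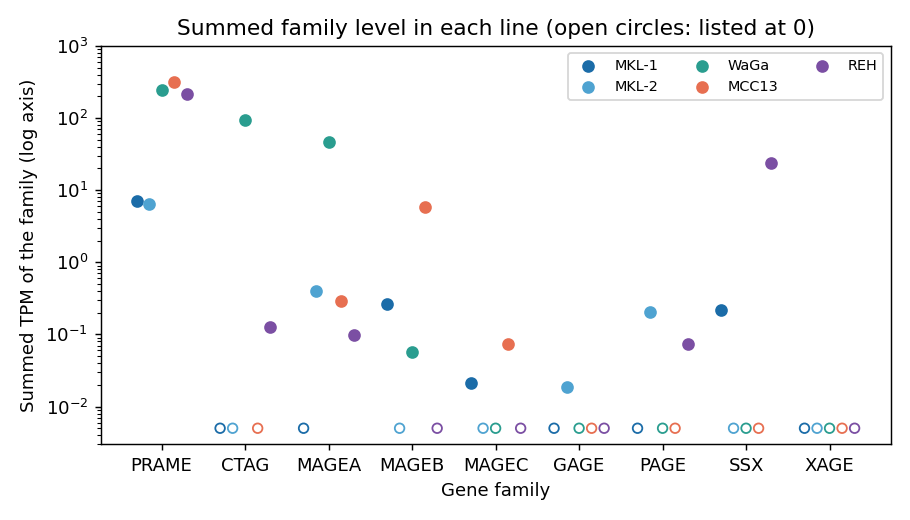
Summed TPM of each cancer-testis family (vertical axis, log scale) in the 5 lines, with sums listed at 0 drawn as open circles at the bottom. PRAME was above 6 TPM in every line, the CTAG and MAGEA sums stood out in WaGa, MAGEB in MCC13 and SSX in REH, and XAGE was listed at 0 throughout.

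PRAME (ENSG00000185686), an antigen first found in melanoma whose protein joins a cullin-2 ubiquitin ligase and can repress retinoic acid receptor signalling, was the only gene of the families found at 1 TPM or more in all 5 lines. The 250 bases before its most upstream start in RefSeq are shown because methylation of CpG sites in this region is known to silence the gene. CpG dinucleotides are in capitals and number 9 (GRCh38.p14, chr22:22559266-22559515, minus strand, printed 5′ to 3′).
PRAME: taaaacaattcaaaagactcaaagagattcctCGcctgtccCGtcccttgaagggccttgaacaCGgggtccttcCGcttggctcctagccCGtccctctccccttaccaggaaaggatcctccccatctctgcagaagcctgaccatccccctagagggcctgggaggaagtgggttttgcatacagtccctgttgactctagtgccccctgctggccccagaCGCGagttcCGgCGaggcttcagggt

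PRAME stood at 317 TPM in MCC13, 242 in WaGa, 216 in REH, 7.07 in MKL-1 and 6.43 in MKL-2. The levels fell into a low pair, MKL-1 and MKL-2, and 3 high lines, with the leukemia line between the low pair and the high Merkel cell carcinoma lines. MKL-1 and MKL-2 differed by 1.10-fold. WaGa was 34.2-fold above MKL-1 and 37.6-fold above MKL-2, and MCC13 was 44.8-fold and 49.3-fold above them. Among the high lines MCC13 was 1.31-fold above WaGa and 1.47-fold above REH, and with 1 library per line these neighbours in the order cannot be separated from the spread of a single library. Ranked among all genes, PRAME was number 494 in MCC13, 660 in WaGa and 806 in REH, and number 11769 in MKL-1 and 11688 in MKL-2. As PRAME is also found in melanoma, 7 melanocyte markers were summed: they reached 18.7 TPM in MCC13, of which MITF made up 16.1 TPM, and 3.29 to 5.67 TPM in the other 4 lines, with SOX10 and TYR below 0.3 TPM in each.

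No test of PRAME passed. Tests were run with limma on log2(TPM + 1) over all genes that reached 1 TPM in a compared line, with a Benjamini-Hochberg adjusted p under 0.05 taken as a call. A line set alone against others has no spread of its own and was assumed to vary like them, and exact permutation could not give a p below 0.25 for 1 line against 3 or 0.2 for 4 against 1. In MCC13 against MKL-1, MKL-2 and WaGa, PRAME differed by 3.70 ± 2.58 (SE) on the log2 scale, with an adjusted p of 0.440 in limma. In the 4 Merkel cell carcinoma lines against REH it differed by -2.23 ± 2.71 (SE), with an adjusted p of 0.725 in limma. In WaGa against the other 3 Merkel cell carcinoma lines the difference was 3.18 ± 2.45 (SE), also short of a call.

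None of the 3 genes on either side of PRAME had its order of levels over the 5 lines. PRAME lies within the immunoglobulin lambda light chain locus, near VPREB1, which encodes a surrogate light chain of pre-B cells and was listed at 0 in all 5 lines, REH included. ZNF280A, between VPREB1 and PRAME, reached 2.97 TPM in MCC13 and did not pass 0.0195 TPM elsewhere. On the other side GGTLC2 did not pass 0.444 TPM in any line, and IGLL5 was at 4.01 TPM in WaGa, 0.0236 in MKL-1 and listed at 0 in the other 3. TOP3B, 3 genes away, ranged from 25.3 to 47.3 TPM over the 5 lines. An antisense transcript overlaps 19 of the 3775 exon bases of PRAME and did not pass 0.161 TPM. No 50-base window of the PRAME transcripts was shared with another gene.

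**Figure D3:**
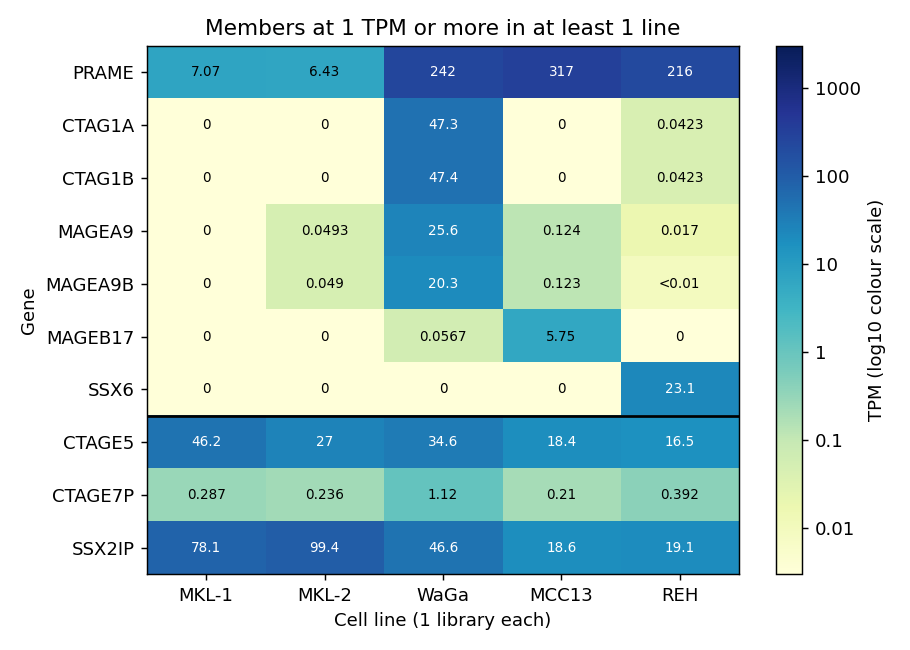
TPM of the 10 genes of the rule that reached 1 TPM in at least 1 line (rows) in the 5 lines (columns), with colour on a log10 scale and the value printed in each cell. The 7 genes above the line belong to the cancer-testis families and the 3 below it were taken in by name only. PRAME was high in WaGa, MCC13 and REH, and each other family gene reached 1 TPM in 1 line.

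CTAG1A (ENSG00000183678) and CTAG1B (ENSG00000184033) are near-identical copies that both encode NY-ESO-1, a cancer-testis antigen that has been a target of engineered T-cell therapy. CTAG1A was at 47.3 TPM in WaGa, 0.0423 in REH and listed at 0 in MKL-1, MKL-2 and MCC13. CTAG1B was at 47.4 TPM in WaGa and 0.0423 in REH, and was listed at 0 in the same 3 lines. Of the 50-base windows in the CTAG1B transcripts of GENCODE 29, 89.9% also occur in CTAG1A, so the split between both is uncertain and only their sum can be read as a level. That sum was 94.7 TPM in WaGa and 0.0847 in REH. CTAG2, the third gene of the family, which encodes the related antigen LAGE-1 and shares 43.1% of its windows with CTAG1A, was at 0.276 TPM in WaGa, 0.0426 in REH and listed at 0 in the other 3 lines.

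Genes beyond CTAG2 on the chromosome were not highest in WaGa, unlike CTAG1A and CTAG1B. GAB3, the next matched gene, was at 0.0239 TPM in WaGa, its lowest value in the 5 lines, and DKC1 was between 151 and 222 TPM in every line.

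MAGEA9 (ENSG00000166008) and MAGEA9B (ENSG00000123584) belong to the MAGEA family, whose proteins bind RING ubiquitin ligases and give rise to some of the first tumour antigens known to be seen by T cells. The 250 bases before the MAGEA9 start are shown because the promoter windows of both genes, 300 bases each in RefSeq, were identical at 300 of 300 bases. CpG dinucleotides are in capitals and number 7 (GRCh38.p14, chrX:149781680-149781929, plus strand; the MAGEA9B copy is at chrX:149587460-149587709, minus strand).
MAGEA9: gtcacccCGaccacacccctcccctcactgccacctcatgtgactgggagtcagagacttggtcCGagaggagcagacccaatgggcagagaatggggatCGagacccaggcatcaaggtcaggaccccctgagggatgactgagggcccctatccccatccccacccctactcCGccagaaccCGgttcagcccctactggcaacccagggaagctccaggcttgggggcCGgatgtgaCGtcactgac

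The symbols of both genes are not used alike in all sources. The row named MAGEA9B in the table carries an identifier that GENCODE 29 names MAGEA9, and 94.0% of the 50-base windows in its transcripts are shared with other genes. MAGEA9 was at 25.6 TPM in WaGa, 0.124 in MCC13, 0.0493 in MKL-2, 0.0170 in REH and listed at 0 in MKL-1. MAGEA9B was at 20.3 TPM in WaGa, 0.123 in MCC13, 0.0490 in MKL-2, 0.00890 in REH and listed at 0 in MKL-1. WaGa was the only line above 1 TPM for either, and the sum of both there was 45.8 TPM against 0.247 TPM in MCC13, the next line.

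The other 13 MAGEA genes stayed below 0.13 TPM in every line, WaGa included. MAGEA1, MAGEA3, MAGEA10, MAGEA11 and MAGEA12 and the pseudogenes MAGEA7P and MAGEA13P were listed at 0 in all 5 lines. MAGEA8 was at 0.124 TPM in WaGa, 0.108 in MKL-2 and 0.0441 in MCC13. MAGEA6 was at 0.102 TPM in MKL-2 and 0.0647 in WaGa, while MAGEA3, with which it shares 52.0% of its windows, was listed at 0 throughout. MAGEA4 was above 0 in REH only, at 0.0713 TPM, and MAGEA5, MAGEA2 and MAGEA2B in MKL-2 only, at 0.0651, 0.0150 and 0.0150 TPM. Values this low may come from a few reads.

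The MAGEA promoters share a short element near the start that was found again in these sequences, and it is shown because MAGEA9 stood apart in WaGa while genes with the same element did not. Each line gives 30 bases from RefSeq (GRCh38.p14), 5′ to 3′ on the strand of the gene, with GATGTGA in capitals. They lie at chrX:149781905-149781934 for MAGEA9, chrX:149881164-149881193 for MAGEA8, chrX:149712040-149712069 for MAGEA11, chrX:152698701-152698730 for MAGEA3, chrX:151912447-151912476 for the first start of MAGEA4 and chrX:152733738-152733767 for MAGEA12, all on the plus strand.
MAGEA9: gggggccgGATGTGAcgtcactgacgtgcg
MAGEA8: ggtggacgGATGTGAcgccactgacgtggc
MAGEA11: gggggccgGATGTGAcctccattggcttcc
MAGEA3: gttgccagGATGTGAcgccactgacttgcg
MAGEA4: gtggcccgGATGTGAcatccctgacttgcg
MAGEA12: cggggccgGATGTGAcgccactgacttgcg

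GATGTGA was found on either strand in 16 of 16 windows of MAGEA genes, which belong to 10 of the 15 genes with 5 of the windows from MAGEA4, and in 1094 of 35116 promoter windows of the same length (3.12%). In MAGEA9 it overlaps by its last 3 bases with the cAMP response element TGACGTCA. TGACGTCA was found in 2 of the 16 MAGEA windows, those of MAGEA9 and MAGEA9B, and in 649 of all 35116 windows (1.85%). These are matches of letters in a window and say nothing of what binds there. The copies with TGACGTCA, which count as 1 sequence, were also the MAGEA genes that reached 1 TPM, in WaGa only. In the other lines these copies did not pass 0.124 TPM. MAGEA8, which has GATGTGA without TGACGTCA, did not pass 0.124 TPM in any line. Any part of TGACGTCA in these levels was not tested. The median number of CpG sites was 12 in 71 windows of 53 cancer-testis family genes and 14 in all windows.

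In WaGa against MKL-1, MKL-2 and MCC13, no gene of the 20698 tested was called by limma (0%), though 467 had an unadjusted p under 0.05. CTAG1A differed by 5.59 ± 0.67 (SE) on the log2(TPM + 1) scale, with an unadjusted p of 0.000745 and an adjusted p of 0.9998 in limma. MAGEA9 differed by 4.65 ± 0.64 (SE), with an unadjusted p of 0.00128 and the same adjusted p in limma. CTAG1B and MAGEA9B differed by 5.60 ± 0.67 (SE) and 4.33 ± 0.62 (SE). The 4 differences, from pairs of near-identical copies, did not hold up once adjusted over all genes. Among these lines each of the 4 genes passed the filter only through WaGa. CTAG1A and CTAG1B were listed at 0 in the other 3, so their SE rests on the spread of other genes. In MKL-1 and in MKL-2, each against the other 3 lines, limma also called no gene of 20698, with 296 and 638 at an unadjusted p under 0.05, none of them a member.

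MAGEB17 (ENSG00000182798), of the MAGEB family on the short arm of X, was the member called in MCC13. It was at 5.75 TPM in MCC13, 0.0567 in WaGa and listed at 0 in MKL-1, MKL-2 and REH. MCC13 was high and the other 4 lines did not reach 0.1 TPM. MAGEB17 thus had almost no spread of its own in the lines set against MCC13, so the SE given next rests largely on other genes. Against MKL-1, MKL-2 and WaGa, MAGEB17 was higher in MCC13 by 2.73 ± 0.14 (SE) on the log2(TPM + 1) scale, with an adjusted p of 0.00872 in limma. In that comparison 8.95% of 20698 genes were called, 6.47% as higher and 2.47% as lower. Of the 93 genes of the rule 9 were tested and MAGEB17 alone was called, and it passed the filter only through its level in MCC13. Leaving out MKL-1, MKL-2 or WaGa ended the call, with adjusted p-values of 0.133, 0.0893 and 0.119 in limma, and no gene at all was called with any one of these lines left out. MCC13 was also the line with a mesenchymal marker sum of 10050 TPM and 5 of 10 Merkel and neuroendocrine markers listed at 0, and their part in this result was not tested.

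Several genes around MAGEB17 were also higher in MCC13. GRPR, the gene of the gastrin-releasing peptide receptor and its neighbour, was at 59.3 TPM in MCC13 and between 0 and 0.629 TPM in the other 4 lines. AP1S2, the next gene on that side, stood at 155 TPM in MCC13 against 21.7 to 46.3 TPM elsewhere, and CTPS2, on the other side, was at 53.2 TPM against 9.03 to 28.7 TPM. S100G, beyond CTPS2, was listed at 0 in MCC13. An antisense gene on the opposite strand, AC078993.1, overlaps 416 of the 1611 exon bases of MAGEB17 (25.8%). Its own level was 12.5 TPM in MCC13 against 0.0651 to 0.308 TPM elsewhere. Library preparation kept the strand, but no label says whether the counting used it, so the reads of MAGEB17 and AC078993.1 cannot be told apart with certainty.

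The other 10 MAGEB genes did not pass 0.127 TPM. MAGEB1, MAGEB3, MAGEB5, MAGEB10 and MAGEB16 were listed at 0 in all lines. MAGEB6P1, which GENCODE 29 names MAGEB6B, was at 0.127 TPM in MKL-1 and its relatives MAGEB6, MAGEB18, MAGEB2 and MAGEB4 were at 0.0537, 0.0462, 0.0260 and 0.0144 TPM in the same line. MAGEB2 was also at 0.0396 TPM in MCC13. MKL-1 was thus the line with most MAGEB genes above 0, all at levels under 0.13 TPM.

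**Figure D4:**
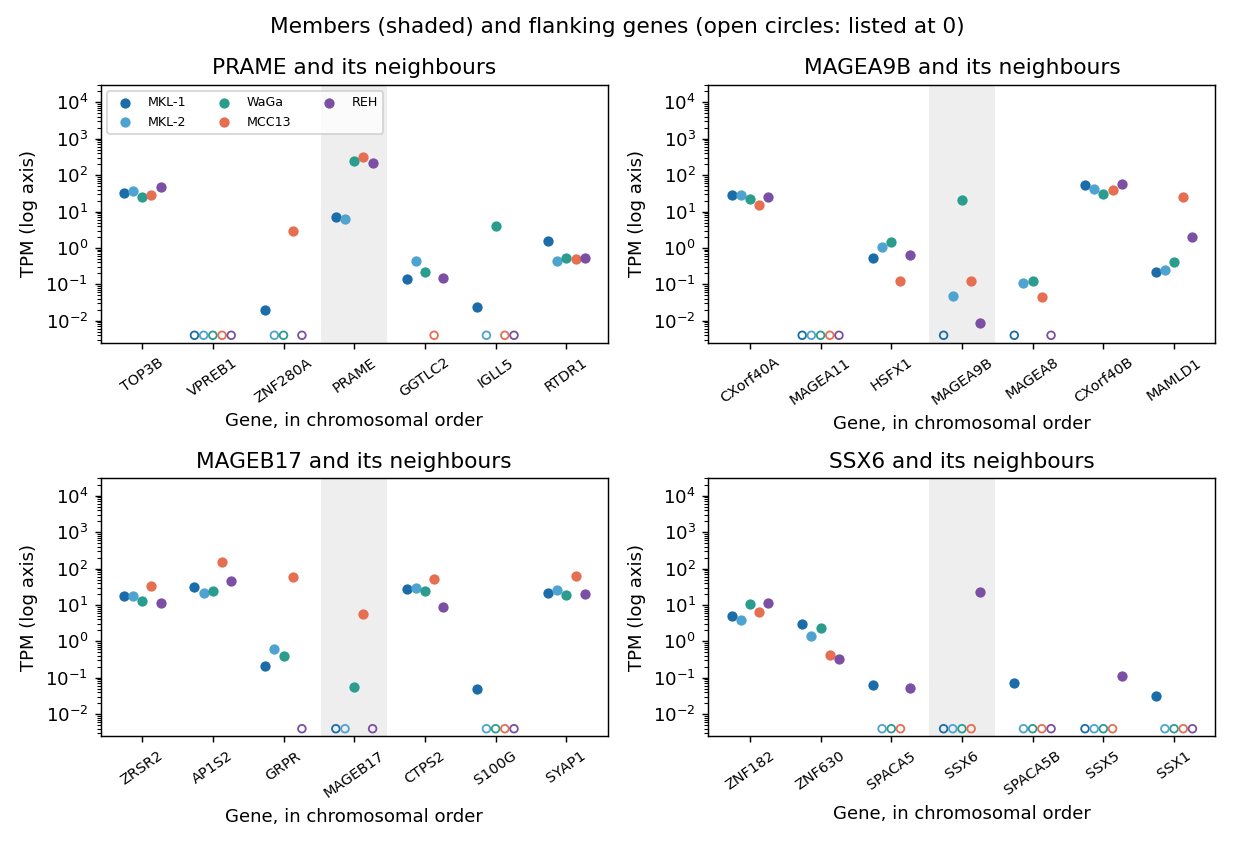
TPM (vertical axis, log scale) of PRAME, MAGEA9B, MAGEB17 and SSX6 (shaded) and of 3 genes on each side in chromosomal order, in the 5 lines, with genes listed at 0 as open circles. GRPR, AP1S2 and CTPS2 were highest in MCC13 together with MAGEB17, whereas SPACA5, SPACA5B, SSX5 and SSX1 around SSX6 did not pass 0.114 TPM in REH.

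SSX6 (ENSG00000171483) was the member called between Merkel cell carcinoma and REH. The SSX genes encode nuclear repressors and are known for their fusion to SS18 in synovial sarcoma. SSX6 is annotated as a transcribed pseudogene in GENCODE 29 and RefSeq, so its level is that of a transcript and not of a known protein. It was at 23.1 TPM in REH and listed at 0 in all 4 Merkel cell carcinoma lines. With no spread of its own among these lines, the SE of SSX6 rests on the spread of other genes. The 4 Merkel cell carcinoma lines were lower than REH by a difference of -4.59 ± 0.26 (SE) on the log2(TPM + 1) scale, with an adjusted p of 0.00572 in limma. In that comparison 5.24% of 22250 genes were called, 4.15% as lower in Merkel cell carcinoma and 1.09% as higher. Of the 93 genes 10 were tested, SSX6 alone was called, and it passed the filter only through REH. With MKL-1, MKL-2 or WaGa left out, the adjusted p was 0.0802, 0.0649 and 0.0758 in limma, and with MCC13 left out it was 0.00885.

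Other SSX genes were above 0 in REH and in MKL-1 only. In REH SSX4 was at 0.538 TPM, its copy SSX4B at 0.273 TPM, SSX5 at 0.114 TPM and SSX3 at 0.0182 TPM. In MKL-1 SSX4B was at 0.0563 TPM, SSX2B at 0.0440 TPM, SSX4 at 0.0399 TPM, SSX8 at 0.0336 TPM, SSX1 at 0.0325 TPM and SSX2 at 0.0148 TPM. None of the 11 SSX genes was above 0 in MKL-2, WaGa or MCC13. Of the windows in SSX6, 5.11% were shared with another gene, while those of SSX2 were all shared, so the level of SSX2 is uncertain. The genes on both sides of SSX6, SPACA5 and SPACA5B, which encode sperm acrosome proteins, were below 0.08 TPM in all 5 lines, and SSX5 and SSX1, which come next, are given above.

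The remaining families were near 0 throughout. Of 17 GAGE genes, a cluster of near-identical copies whose products are tumour antigens, 16 were listed at 0 in all lines and GAGE12B was at 0.0189 TPM in MKL-2. The 9 XAGE identifiers were listed at 0 in every line. They are fewer genes in the reference, where XAGE1C, XAGE1D and XAGE1E are older symbols of XAGE1B, and XAGE2 and XAGE2B both match XAGE2. Of 6 PAGE genes 3 were listed at 0 in all lines, PAGE2B and PAGE2 were at 0.122 and 0.0807 TPM in MKL-2, and PAGE5 was at 0.0728 in REH. Of 3 MAGEC genes, MAGEC1 was at 0.0743 TPM in MCC13, MAGEC2 at 0.0210 in MKL-1, and MAGEC3 was listed at 0. All windows of GAGE12C and XAGE1A, for instance, are shared with other genes, and no label says how the counting treated such reads, so a 0 in genes like these is uncertain. PAGE1, PAGE3 and PAGE4, also listed at 0, share no window with another gene.

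Of the 17 genes taken in by name, CTAGE5 and SSX2IP were present in every line. CTAGE5 (ENSG00000150527), now named MIA2, whose product works at endoplasmic reticulum exit sites in the export of large cargo, was at 46.2 TPM in MKL-1, 34.6 in WaGa, 27.0 in MKL-2, 18.4 in MCC13 and 16.5 in REH. SSX2IP (ENSG00000117155), a centrosome and cell adhesion protein, was at 99.4 TPM in MKL-2, 78.1 in MKL-1, 46.6 in WaGa, 19.1 in REH and 18.6 in MCC13. Both were above 16 TPM in every line, with MKL-1, MKL-2 and WaGa above MCC13 and REH.

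SSX2IP differed by -1.88 ± 0.53 (SE) in MCC13 against MKL-1, MKL-2 and WaGa, with an adjusted p of 0.149 in limma, and CTAGE5 by -0.90 ± 0.41 (SE), with an adjusted p of 0.279 in limma. Against REH, the 4 Merkel cell carcinoma lines differed by 1.37 ± 0.98 (SE) for SSX2IP and by 0.82 ± 0.58 (SE) for CTAGE5, with adjusted p-values of 0.552 and 0.550 in limma. CTAGE7P, a pseudogene, was at 1.12 TPM in WaGa, 0.392 in REH, 0.287 in MKL-1, 0.236 in MKL-2 and 0.210 in MCC13. The other 14 CTAGE genes did not reach 1 TPM, the highest being CTAGE4 at 0.713 TPM in MCC13, and 99.2% of the windows of CTAGE4 are shared with other genes. None of these genes was called.

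Other germline genes were examined from a list of 47 symbols, 45 of which were in the table. In MCC13 against MKL-1, MKL-2 and WaGa 9 could be tested and 1 was called higher, where 6.47% of all tested genes were called higher. That gene was CTCFL, also named BORIS, a testis-specific relative of the insulator protein CTCF. CTCFL was at 34.8 TPM in MCC13, 4.55 in REH, 0.0495 in WaGa and listed at 0 in MKL-1 and MKL-2. It was higher in MCC13 by 5.14 ± 0.23 (SE), with an adjusted p of 0.00855 in limma. CTCFL passed the filter among these lines only through MCC13. As the other 3 lines were at or near 0, its SE rests largely on the spread of other genes. The call did not hold with any one of those 3 lines left out. LY6K, a surface protein of testis and tumours, was at 142 TPM in MCC13, 13.6 in MKL-2, 11.7 in WaGa and listed at 0 in MKL-1 and REH, and its difference had an adjusted p of 0.261 in limma. TEX15, needed for meiosis and transposon silencing in male germ cells, was at 27.2 TPM in MKL-2, 21.6 in MKL-1, 11.7 in WaGa, 3.06 in MCC13 and below 0.001 in REH. None of the 9 was called against REH by limma, with 1, TEX15, at an unadjusted p under 0.05. In that comparison 5.24% of all tested genes were called. The median difference of the 9 was 1.19 in the comparison of MCC13, where that of all tested genes was -0.30, and 1.13 in the comparison with REH, where that of all tested genes was 0.18.

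Most type II MAGE genes, relatives that are active in many tissues, gave a contrast within the wider family, but not all did. MAGEE2 and MAGEL2 were listed at 0 in all 5 lines, and NDN was at 0.0338 TPM in MCC13 and listed at 0 elsewhere. Of 11 in the table, 8 could be tested and limma called none in either comparison, with 2 and 0 at an unadjusted p under 0.05. The shares of all tested genes called were 8.95% for MCC13 and 5.24% against REH. MAGED1, which takes part in apoptosis signalling, was at 224 TPM in REH, 151 in MKL-2, 149 in WaGa, 108 in MCC13 and 96.1 in MKL-1. MAGED2 and MAGEF1 ranged from 38.5 to 110 TPM and from 79.4 to 186 TPM over the 5 lines. MAGEH1 varied most, at 44.1 TPM in MCC13, 23.7 in REH, 3.20 in WaGa, 0.163 in MKL-2 and 0.0573 in MKL-1, with an adjusted p of 0.106 in limma for MCC13.

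DNA methylation and the proteins that keep germline genes off in somatic cells were examined through a list of 33 genes. Of these, 32 were tested in the comparison of MCC13 and 1 was called lower, where 2.47% of all tested genes were called lower. DNMT3A, a de novo DNA methyltransferase, was at 139 TPM in REH, 76.9 in WaGa, 76.6 in MKL-2, 73.6 in MKL-1 and 23.0 in MCC13. It was lower in MCC13 than in the other Merkel cell carcinoma lines by a difference of -1.68 ± 0.19 (SE), with an adjusted p of 0.0309 in limma. DNMT1, the maintenance methyltransferase, ranged from 203 to 309 TPM over the 5 lines. The median difference of the list was -0.51, against -0.30 for all tested genes.

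In the comparison with REH 33 of these genes were tested and 2 were called, both lower in Merkel cell carcinoma, where 4.15% of all tested genes were called lower. UHRF1, which brings DNMT1 to newly copied DNA, was at 1590 TPM in REH, 206 in MKL-1, 189 in WaGa, 187 in MCC13 and 152 in MKL-2, a difference of -3.12 ± 0.27 (SE) with an adjusted p of 0.00940 in limma. DNMT3L, a cofactor of the de novo enzymes in germ cells, was at 1.05 TPM in REH, 0.0433 in WaGa and listed at 0 in the other 3, with an adjusted p of 0.0292 in limma, or 0.158 without the variance trend, and it passed the filter only through REH. The median difference of the list was -0.40, against 0.18 for all tested genes. Leaving out MKL-1, MKL-2 or WaGa ended all 3 calls. DNMT3A lay between 73.6 and 76.9 TPM in the low PRAME lines MKL-1 and MKL-2 and in the high line WaGa. A link between the levels of DNMT3A and PRAME was not tested.

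**Figure D5:**
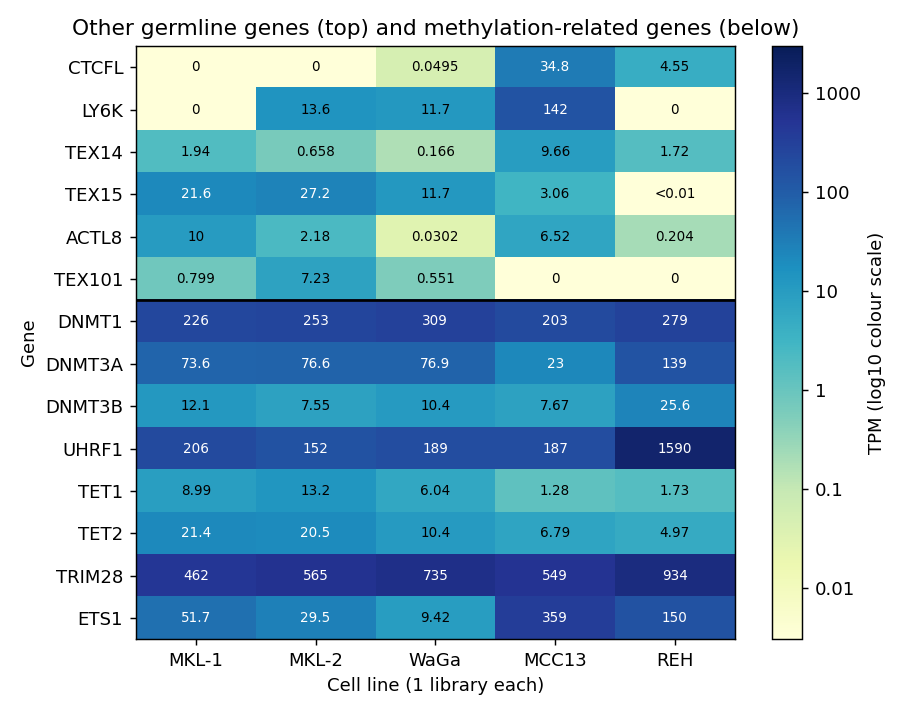
TPM of 6 other germline genes (upper rows) and 8 genes related to DNA methylation, repression or ETS factors (lower rows) in the 5 lines (columns), with colour on a log10 scale and the value in each cell. CTCFL and LY6K were highest in MCC13, DNMT3A was lowest there at 23.0 TPM, and UHRF1 stood at 1590 TPM in REH.

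Of 13 genes whose products are known to bind or work with cancer-testis proteins, or to be fused to them in tumours, 11 were tested. In MCC13 limma called none, with 1 at an unadjusted p under 0.05, where 8.95% of all tested genes were called. Against REH it called 1, as higher, where 1.09% of all tested genes were called higher. That gene was SS18, the partner of the SSX genes in synovial sarcoma fusions. SS18 was lowest in REH, at 18.3 TPM, and stood at 62.9 TPM in WaGa, 83.8 in MKL-2, 87.1 in MKL-1 and 95.8 in MCC13. It was higher in the Merkel cell carcinoma lines by 2.10 ± 0.34 (SE), with an adjusted p of 0.0446 in limma, which rose to 0.0513 with a pseudocount of 0.1, 0.0675 at a mean of at least 5 TPM and 0.0666 without the variance trend, and to 0.106 to 0.169 with MKL-1, MKL-2 or WaGa left out. TRIM28, a ligase bound by MAGEA and MAGEC proteins and a corepressor, was between 462 and 934 TPM in all lines. CUL2, RBX1, TCEB1 and TCEB2, the ligase subunits with which PRAME works, ranged from 25.5 to 520 TPM over the 5 lines.

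The genes that present peptides to T cells differed widely in level between the lines. HLA-B was at 2451 TPM in REH, 700 in MCC13, 322 in WaGa, 15.1 in MKL-2 and 0.0637 in MKL-1. HLA-C was at 794 TPM in REH, 243 in WaGa, 177 in MCC13, 15.5 in MKL-2 and 0.933 in MKL-1. The 3 lines with high PRAME were thus also the 3 with HLA-B and HLA-C above 100 TPM, which is a description of 5 libraries and no test. TAP1, which carries peptides into the endoplasmic reticulum, was below 0.5 TPM in MKL-1 and WaGa and at 40.2, 91.5 and 123 in MKL-2, MCC13 and REH. In MCC13 PSMB10, a subunit of the immunoproteasome, was the 1 of 11 tested genes called higher, at 60.6 TPM where the other Merkel cell carcinoma lines had 7.44 to 10.0 TPM, with an adjusted p of 0.0422 in limma, a call that ended with any one of those lines left out. In the comparison of MCC13, 6.47% of all tested genes were called higher. Against REH limma called none, with 2 at an unadjusted p under 0.05, where 5.24% of all tested genes were called.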

How the data were processed

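Total RNA of 5 cell lines, 1 library each, was enriched for mRNA with oligo-dT and made into directional libraries, per the labels' protocols. The deposited table holds TPM values that the authors had computed for 57905 genes. The submitters' processing notes name SAMtools 0.1.19, StringTie 1.3.5, STAR 2.4.5b and bcl2fastq 2.20, and the builds GRCh37 and hg19, without their roles or the annotation. TPM keeps no depth, so no counting interval could be given. Not used were 2 columns that matched no sample.

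Levels were compared with limma 3.58.1 in R 4.3.3 on log2(TPM + 1), with eBayes and a variance trend, over all genes that reached 1 TPM in a compared line, with Benjamini-Hochberg adjustment over all of them. This left 2 residual degrees of freedom among the 4 Merkel cell carcinoma lines and 3 over all 5. The fit was also tested on simulated data of 1 line against 3, with the same spread for every gene. In the real data spreads differ between genes and many levels lie at 0, so that test does not vouch for the calls given here. p-values rest on the spread between lines of different tumours, which eBayes moves toward that of other genes of like level. Where the lines set against 1 line were all listed at 0, as for SSX6, the SE rests on other genes. Where they were all at or near 0, as for MAGEB17, CTCFL and DNMT3L, it rests largely on other genes. Alternatives were a pseudocount of 0.1, no filter, a mean of at least 5 TPM, quantile normalization, no mitochondrially encoded genes, no trend, summed copies and each line left out. GENCODE 29 and RefSeq (GRCh38), a later build than that of the table, gave chromosomes, gene order, windows of 50 bases shared between transcripts, and promoter windows of 250 bases before to 50 after a start. Every member at 1 TPM or more in a line is named with its value in each line, and others are given by range; of each list, genes that were called and at most 6 others of high level are named. The members and lists were chosen with earlier results of these data known. Some genes of these lists and regions are not reported here.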

Additional observations from a re-analysis of the deposited data

Results flagged for a closer look

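Of the 10 genes of the rule that reached 1 TPM in a line, 6 had 1 Merkel cell carcinoma line far from the other 3, with a gap to the nearest of them that exceeded Dixon's 95% critical value. Over all 22250 genes that reached 1 TPM in a line, 3198 (14.4%) had such a gap, a count added after the data were seen. A gene chosen for reaching 1 TPM in 1 line with the others near 0 has a wide gap by that choice, so the usual rate of about 1 in 20 does not apply to these genes, and near-identical copies are not independent. In WaGa, CTAG1A at 47.3 TPM, CTAG1B at 47.4 TPM, MAGEA9 at 25.6 TPM, MAGEA9B at 20.3 TPM and CTAGE7P at 1.12 TPM stood above the other 3 lines. In MCC13, MAGEB17 stood above them at 5.75 TPM.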

How the results depend on the processing

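No paired analysis was possible because each line has 1 library and the groups share no replicate number that could pair samples. In MCC13 against MKL-1, MKL-2 and WaGa, the count of called genes was 1852; it was 3513 without a filter on low values, 1167 at a mean of at least 5 TPM, and 0 to 0 with 1 of the other lines left out. In the 4 Merkel cell carcinoma lines against REH it was 1166; it was 3794 without a filter, 288 at a mean of at least 5 TPM, and 0 to 2828 with 1 line left out. Without MKL-1, MKL-2 or WaGa no gene was called, with 1 fewer residual degree of freedom; the 2828 were called without MCC13. At a threshold of 0.1 TPM in place of 1 TPM, 14 members were counted in REH, 12 in MCC13, 11 in WaGa, 7 in MKL-2 and 5 in MKL-1, where 41.4% to 44.5% of all genes passed. Values of uncalled genes that changed sign were those of CTAGE7P against REH (-0.064 with a pseudocount of 0.1 and -0.24 after quantile normalization), CTAGE5 in MKL-2 without MKL-1 (0.091) and in WaGa without MCC13 (-0.028), and SSX2IP in WaGa without MKL-1 (0.10) or MKL-2 (0.28). The cause was not tested. MAGEB17 and SSX6 remained called with a pseudocount of 0.1, no filter, quantile normalization, no mitochondrial genes, no variance trend and summed copies, and at a mean of at least 5 TPM neither was tested. Without a filter 7 members were called in each main comparison, most of them under 1 TPM. The median difference of all tested genes moved from -0.30 to -0.13 and from 0.18 to 0.03 after quantile normalization. Depth is unknown, so levels below 0.1 TPM cannot be told from a few reads.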
